A study of Mus musculus with 3 samples.

Results

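The TRIM (tripartite motif) family was described in the choroid plexus epithelium (CPE) of the mouse. Its members were all probes for mouse genes, control spots excluded, whose gene name on the array begins with Trim followed by a digit. This gave 101 probes for 52 genes, of 41174 probes and 21589 gene names on the array. Of these genes, 20 had 1 probe and 32 had several. The samples were CPE of 3 healthy adult C57BL/6 mice, laser dissected from frozen sections of the lateral ventricles, with 1 sample per mouse. Amplified RNA of each mouse (Cy5) was hybridised with a common reference RNA (Cy3) from the RPE/choroid, the pigment epithelium and vascular layer of the eye, also of C57BL/6 mice. The animals had no treatment and no allele was altered, so the samples form 1 group and the comparison is CPE over this reference. The reference was 1 RNA on all arrays, hence its own spread is not part of any error below, and dyes were not swapped, hence a dye preference of a probe stays in its ratio.

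TRIM proteins carry a RING finger, 1 or more B-boxes and a coiled coil at their N-terminal side. The RING finger binds an E2 enzyme, which is loaded with ubiquitin, and helps to pass that ubiquitin to a target protein. The C-terminal part differs between members and decides much of what they bind, and the family is commonly sorted by it. Members are known from antiviral defence, transcriptional repression, muscle protein turnover and the cytoskeleton of neurons. The choroid plexus epithelium itself makes cerebrospinal fluid and forms the barrier between blood and that fluid.

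Markers of the labelled tissue were bright in the samples, and so were some of other cells. Of 11 CPE markers tested, 10 passed the test as higher in CPE, and all 11 were in the high expression class. The exception was Otx2, a transcription factor also used by RPE, at a log2 ratio of 0.14. Of the markers of other tissues, 8 of 9 for RPE and melanocytes, 8 of 8 for photoreceptors, 8 of 10 for skeletal muscle, 5 of 7 for neurons, 4 of 8 for surface epithelium, 3 of 5 for macrophages and 5 of 6 for stroma were lower in CPE. Even so, the high class in CPE held 5 of the 6 stroma markers (Dcn, Lum, Col1a1, Col1a2 and Pdgfra), Krt5 and Perp of surface epithelium, Gnat1 and Pde6g of photoreceptors, Dct of melanocytes and Csf1r of macrophages. The part of RNA from such cells in the TRIM values was not tested. The share of probes well above background in the CPE channel differed between arrays, at 58.5%, 46.0% and 85.6% in mice 1, 2 and 3.

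Of the 101 TRIM probes, 43 had a signal well above background on all 3 arrays in CPE and in the reference. A further 26 had one in the reference alone, 1 in CPE alone, and 31 in neither. Those 31 were not tested, which left 70 TRIM probes and, with the brightest probe standing for each gene, 40 of 52 genes. The CPE signal of 32 TRIM genes (61.5%) was above background on all arrays, where 58.4% of all genes were (over probes, 44 TRIM probes against 44.9% of all). In the reference it was so for 39 TRIM genes, with a background of 69.9%. A probe was called when limma's adjusted p (Benjamini-Hochberg, over all 25838 probes tested) was under 0.05 and the ratio at least 2-fold. This held for 11 of 70 TRIM probes (15.7%), against 17.3% of all probes tested. Higher in CPE were 4 TRIM probes (background 7.09%) and lower were 7 (background 10.2%). These directions are shaped by entry, as 26 of the 70 probes entered through the reference alone and 1 through CPE alone. When both channels had to be above background on all arrays, 8 TRIM probes were called, 3 higher and 5 lower. When ratios were centred on each array's median instead of fitted by loess, 7 were higher and 4 were lower. With 1 probe per gene, 7 of 40 genes (17.5%) were called, where 20.3% of all genes were. The TRIM shares thus lay near the background. The median log2 ratio was -0.05 over the TRIM probes and -0.04 over all probes tested, and the median size of the ratio was 0.43 and 0.39.

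The 7 called genes were Trim8 and Trim37, higher in CPE (background 8.93%), and Trim9, Trim29, Trim63, Trim2 and Trim16, lower in CPE (background 11.4%). In all 7 the ratio had the same sign in the 3 mice. Another 12 genes had an adjusted p under 0.05 and a ratio under 2-fold. Of these, Trim3, Trim28, Trim32, Trim45 and Trim59 lay above 0 and Trim13, Trim25, Trim26, Trim30, Trim36, Trim44 and Trim67 below it, with ratios from -0.95 to 0.75. The 21 remaining tested genes had an adjusted p of 0.05 or more and ratios from -0.47 to 0.44.

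**Figure D1:**
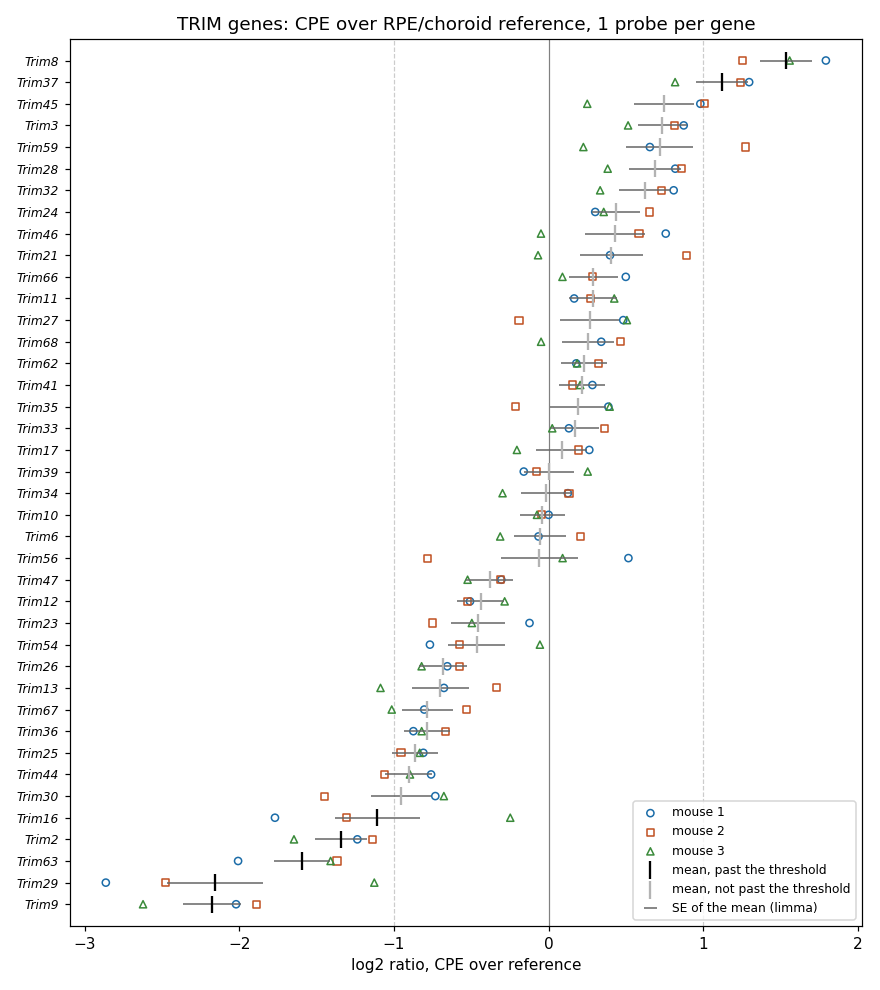
Log2 ratio of CPE over the reference (horizontal axis) for the 40 tested TRIM genes, 1 probe per gene, ordered by their mean. Symbols are the 3 mice, bars the mean, lines its SE, and dashed lines the 2-fold limit. The 2 called genes at the top and the 5 at the bottom have all 3 mice on 1 side of 0, while the mice of Trim29 and Trim16 lie far apart.

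Trim8 had the brightest TRIM probe in CPE. It encodes a RING ligase without a listed C-terminal domain, known as a regulator of cytokine signalling through JAK-STAT and NF-kappaB. Its probe (chr19:46569499-46569558, mouse build mm8) lay at percentile 98.6 of the CPE signal, meaning that 98.6% of all probes ranked lower, and at 98.7, 98.3 and 98.7 in mice 1, 2 and 3. The CPE signal was 13.14, 12.77 and 13.05 (log2 intensity) and the reference signal 11.35, 11.52 and 11.49. All CPE values thus lay above all reference values. The log2 ratios were 1.79, 1.25 and 1.56, with a mean of 1.53 (SE 0.17, n = 3, limma adjusted p 0.000431), or 2.90-fold. Another Trim8 probe, 1112 bases upstream on the genome, was also called at 1.11, although its mice spread from 0.25 to 2.15. It entered the test through the reference channel alone, with a CPE signal above background on 2 of 3 arrays. The remaining Trim8 probe matched the opposite strand and was not tested.

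Trim37 carries a MATH domain, and its loss causes mulibrey nanism in humans. Its brightest probe (chr11:87035451-87035510) lay at percentile 88.3, in the moderate class. The log2 ratios in mice 1, 2 and 3 were 1.30, 1.24 and 0.82. The mean of 1.12 (SE 0.17, n = 3, limma adjusted p 0.00181) was just above the 2-fold limit. Its other probes were not called. They gave 0.53 at 78743 bases upstream and 0.13 at 787 bases downstream of the brightest probe. The call of Trim37 therefore belongs to 1 of 3 tested probes.

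Trim9 encodes a ligase of neurons with a COS box, which binds microtubules, and is known from axon guidance. Its brightest probe (chr12:71163339-71163398) gave log2 ratios of -2.02, -1.89 and -2.62. The mean was -2.18 (SE 0.19, n = 3, limma adjusted p 0.000138), which is 4.52-fold lower in CPE. In the CPE channel this probe was above background on all 3 arrays, at percentile 58.1. With the scanner software's own ratio the mean was -3.20. Probes 3163 and 7956 bases upstream gave -0.79 and -0.46 and were not called, and the probe 10903 bases upstream was not tested. The tested Trim9 probes thus differed by 1.72 on the log2 scale. Neurons were among the cells whose markers moved the same way. Of 7 neuron markers, 5 were lower, and their summed signal (linear intensity) was 1560 to 2341 in CPE and 17770 to 19930 in the reference, with each marker above background on at least 1 CPE array. Their part in the result was not tested. In tissue RNA of this kind, fewer cells of a type and less RNA per cell cannot be told apart.

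Trim2, a ligase with NHL repeats that targets the neurofilament light chain, was lower in CPE by both tested probes. The brighter probe (chr3:84246574-84246633) gave -1.24, -1.14 and -1.65, with a mean of -1.34 (SE 0.17, n = 3, limma adjusted p 0.000792). The other, 223 bases upstream, gave -1.37. Even so, Trim2 was well expressed in CPE, at percentiles 86.9, 89.0 and 82.5 in mice 1, 2 and 3. With median centring its ratio was -0.69 and no longer called (adjusted p 0.179). The neuron markers given for Trim9 moved in the same direction, and Nefl, the neurofilament light chain itself, was lower at -4.71. Their part in the result was not tested.

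Trim29 and Trim16 are members without a RING finger, both known from stratified epithelia. Trim29 (chr9:43086944-43087004) gave log2 ratios of -2.86, -2.48 and -1.13. The mean was -2.16 (SE 0.31, n = 3, limma adjusted p 0.00148). The reference signal was steady at 10.24, 10.16 and 10.42, while the CPE signal was 7.38, 7.68 and 9.29. Mouse 3 thus set the spread, and Trim29 ranked at percentile 81.1 there against 56.1 and 61.5 in mice 1 and 2. Without mouse 3 the ratio was -2.67. Of 8 markers of surface epithelium and keratinocytes, 4 were lower in CPE. Krt5 gave ratios of -3.79, -3.91 and -3.48 and Krt14 of -2.74, -2.81 and -2.32, nearest 0 in mouse 3 as for Trim29, while Trp63 was farthest from 0 there. Ratios over the whole array also lay nearer 0 in mouse 3, with a median size of 0.48, 0.46 and 0.33 in mice 1, 2 and 3. The summed signal of the list was 14130, 14540 and 13990 in CPE and 50080 to 53810 in the reference, and its brightest member in CPE was Perp, which was not called (-0.46). Each was above background on at least 1 CPE array. Their part in the result was not tested.

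Trim16 (chr11:62657429-62657488) gave -1.77, -1.31 and -0.25, with a mean of -1.11 (SE 0.27, n = 3, limma adjusted p 0.0157). Another probe, 1592 bases downstream, was called at -1.15, and a probe 623 bases upstream was not, at -0.22. Both entered the test through the reference channel alone, with a CPE signal above background on 2 of 3 arrays. The call depended on mouse 1, as the mean without it was -0.78 (adjusted p 0.0909). It was also lost with median centring, at -0.80 (adjusted p 0.0880).

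Trim63, or MuRF1, is the muscle RING finger that tags sarcomere proteins for breakdown. Its CPE signal (chr4:133601186-133601245) was not well above background on any array, whereas the reference signal was above it on all 3. The CPE signal was 6.66, 7.16 and 6.22 (log2 intensity) and the reference signal 8.67, 8.53 and 7.63. All CPE values lay below all reference values. The probe was tested through the reference channel alone, with a mean log2 ratio of -1.60 (limma adjusted p 0.000516). The bound for a dim probe took its own CPE signal on every array, so it equals this ratio, 3.02-fold lower. It is thus not a firm minimum. The ratio was -1.28 without background correction and -3.86 with the scanner software's own ratio. A probe 11806 bases upstream gave 0.23 and was not called. The related Trim54 lay at -0.47 (adjusted p 0.0808) and Trim55 was not tested. Of 10 skeletal muscle markers, 8 were lower in CPE. Their summed signal was 1804, 2050 and 4139 in CPE and 14860 to 15220 in the reference, each above background on at least 1 CPE array. Their part in the result was not tested.

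**Figure D2:**
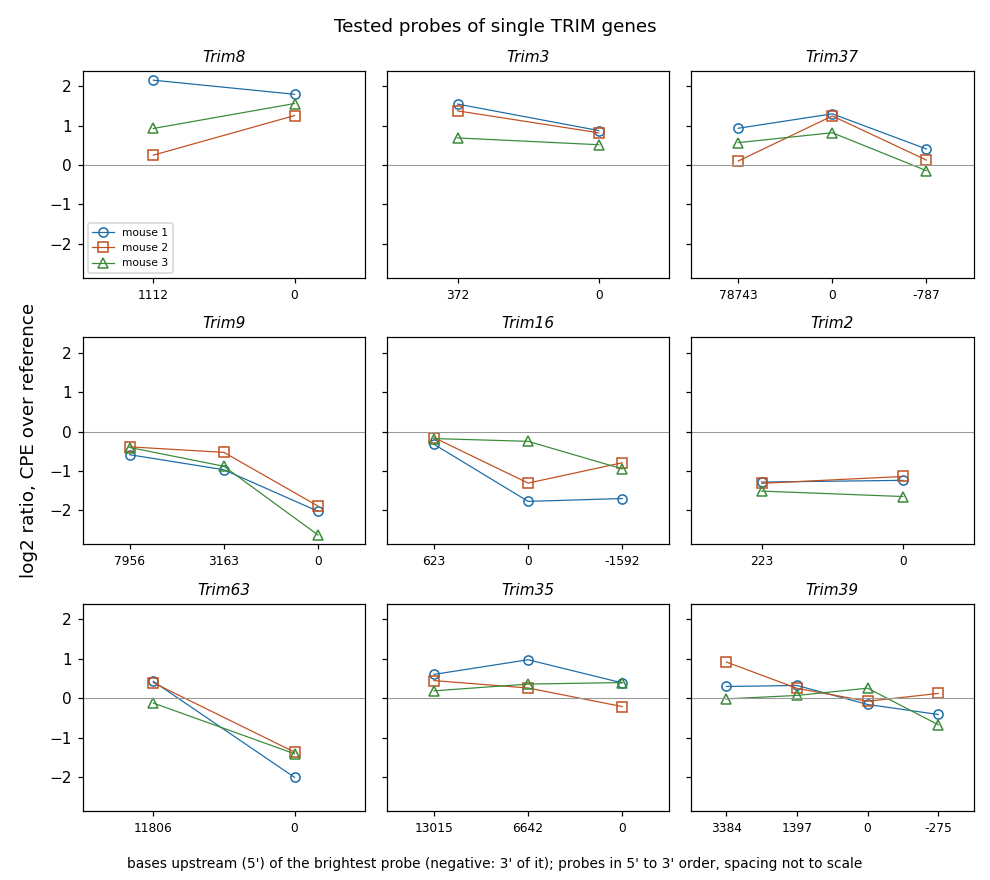
Log2 ratio of CPE over the reference (vertical axis) for every tested probe of 9 TRIM genes, by mouse, with probes in 5′ to 3′ order and their distance in bases from the brightest probe below. Both Trim2 probes agree, whereas the probes of Trim9 and Trim63 differ by more than 2-fold. The CPE signal of the Trim63 probe at 0 was not above background, so the size of its ratios is uncertain.

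Sequence before the gene start is shown for Trim37, Trim9 and Trim63, 1 called gene above 0 and 2 below, for which RefSeq promoters of mouse build GRCm38.p6 were matched. Each is the 250 bases ahead of the annotated start, 5′ to 3′ on the gene's strand, at chr11:87126825-87127074 (+) for Trim37, chr12:70347615-70347864 (-) for Trim9 and chr4:134314870-134315119 (+) for Trim63. Capitals mark matches, on either strand, to the motifs named after the sequences.
Trim37: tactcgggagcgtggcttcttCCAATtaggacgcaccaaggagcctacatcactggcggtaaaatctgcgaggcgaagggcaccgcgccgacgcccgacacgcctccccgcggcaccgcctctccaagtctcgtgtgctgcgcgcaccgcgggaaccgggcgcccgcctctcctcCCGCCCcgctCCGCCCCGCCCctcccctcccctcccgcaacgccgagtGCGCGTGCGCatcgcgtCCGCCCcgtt
Trim9: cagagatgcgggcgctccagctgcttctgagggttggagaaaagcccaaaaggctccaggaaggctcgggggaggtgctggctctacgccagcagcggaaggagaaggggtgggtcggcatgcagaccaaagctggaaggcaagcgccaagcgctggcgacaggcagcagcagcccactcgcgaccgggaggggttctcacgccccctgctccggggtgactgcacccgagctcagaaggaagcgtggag
Trim63: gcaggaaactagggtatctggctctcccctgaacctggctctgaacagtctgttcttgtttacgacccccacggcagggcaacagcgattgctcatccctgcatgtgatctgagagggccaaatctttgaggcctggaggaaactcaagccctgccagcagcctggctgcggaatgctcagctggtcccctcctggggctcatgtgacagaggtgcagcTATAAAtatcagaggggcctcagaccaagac

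The motifs searched on both strands were the GC box (GGGCGG), the CCAAT box (CCAAT), the TATA box (TATAAA), the cAMP response element (TGACGTCA), the NRF1 motif (GCGC and TGCGC with any 1 base between) and the interferon-stimulated response element, ISRE (GAAA and GAAA with any 2 bases between). In the 250 bases shown, Trim37 holds 1 CCAAT box, several GC boxes, 2 of which overlap by 1 base, and the NRF1 motif. Trim63 holds a TATA box and Trim9 none of the 6. CpG dinucleotides numbered 37 in Trim37, 16 in Trim9 and 4 in Trim63, where the median was 9 over 53 promoters of 39 TRIM genes and 6 over 32851 promoters in all. A GC box was found in 41.5% of TRIM promoters and 32.7% of all, and a CCAAT box in 37.7% and 33.8%. The NRF1 motif was in 11.3% of TRIM promoters, those of Trim13, Trim23, Trim37, Trim39 and Trim59, and in 3.74% of all. TATA boxes were in 9.43% and 12.4%, and the cAMP response element in 3.77%, those of Trim26 and Trim52, and 1.55%. A match describes the letters alone and is not evidence that a factor binds there.

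By class median, members with NHL repeats and those with PHD fingers and a bromodomain ranked above the larger classes in CPE, with few genes in each and no test of the difference. The median percentile was 91.0 for the 3 NHL genes and 88.7 for the 4 PHD-bromodomain genes, and Trim37 with its MATH domain lay at 88.3, against 66.2 for the 23 SPRY genes and 37.3 for the 8 COS genes. Percentiles rank probes, which hybridise unequally, so they do not order transcripts by abundance. The high class, above the 90th percentile, held 7 of 52 TRIM genes (13.5%), where it held 15.7% of all genes. The moderate class (50th to 90th percentile) held 28 (background 46.2%), the low class (10th to 50th) 15 (background 32%) and the very low class 2 (background 6.1%), which were Trim31 and Trim61. The median over all TRIM genes was 63.6, and over all genes 62.8. Counted over probes, the high class held 7 of 101 TRIM probes (6.93%) and 10% of all probes. Of the 7 genes in the high class, 6 were above the 90th percentile in every mouse. When 1 probe per gene was ranked, only Trim8 and Trim35 stayed in the class, at 97.8 and 91.2. When only probes above background in CPE were ranked, Trim8 alone stayed, at 96.9.

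**Figure D3:**
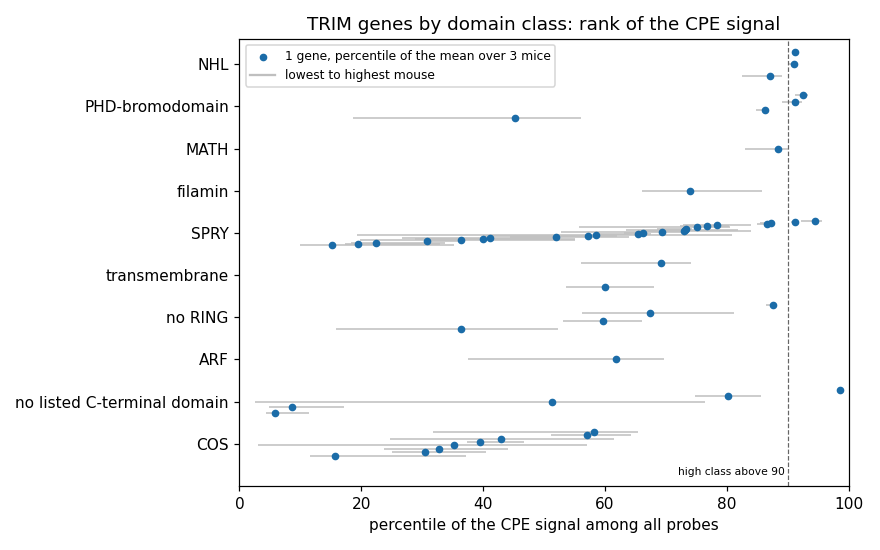
Percentile of the CPE signal among all probes (horizontal axis) for the 52 TRIM genes, grouped by C-terminal domain class. Points are the percentile of the mean over 3 mice, and lines run from the lowest to the highest mouse. Of the COS genes, all 8 lie below 60, and 2 of 3 NHL genes lie above 90.

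Besides Trim8, the high class held Trim35, Trim33, Trim3, Trim41, Trim24 and Trim32. A gene is placed by its brightest probe, and other probes ranked lower. They lay at 65.8 and 54.1 for Trim35, 34.8 and 21.5 for Trim24 and 36.8 for Trim32. Of the 32 TRIM genes with several probes, 22 had probes in more than 1 class. Trim35 carries a SPRY domain and lay at percentile 94.4. Its log2 ratios were 0.39, -0.21 and 0.39, so the mice did not share a direction (mean 0.19, adjusted p 0.449). Trim41, another SPRY member, lay at 91.2 with ratios of 0.28, 0.15 and 0.20. Its mean of 0.21 had an adjusted p of 0.298. A dimmer Trim41 probe, at percentile 61.6, lay on the other side of 0 with ratios of -0.90, -0.91 and -0.49 (adjusted p 0.00860), under 2-fold. Tested probes lay on both sides of 0 in 6 of the 21 genes with more than 1 tested probe, namely Trim26, Trim27, Trim39, Trim41, Trim63 and Trim67.

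Trim3 and Trim32 share the NHL repeats of Trim2. Trim3, a ligase known from synapses, lay at percentile 91.6, 90.9 and 90.6 in mice 1, 2 and 3. Its probe (chr7:105484529-105484588) gave ratios of 0.87, 0.82 and 0.51, with an adjusted p of 0.00902 and a mean under 2-fold. A dimmer Trim3 probe, 372 bases upstream and at percentile 70.3, was called at 1.20 (limma adjusted p 0.0029). Trim32, mutated in a limb-girdle muscular dystrophy, lay at percentile 91.0 with ratios of 0.81, 0.73 and 0.33 (mean 0.62, adjusted p 0.0208). With median centring both were called, at 1.32 and 1.21. With loess, the NHL genes therefore held 1 called lower gene (background 11.4%) and 2 that lay above 0 in every mouse. With median centring Trim2 was no longer called, at -0.69. With 3 genes these counts are not read as a result about the class.

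Trim24, Trim28, Trim33 and Trim66 are nuclear cofactors that read chromatin through a PHD finger and a bromodomain. None was called, where 20.3% of all genes tested were. With 4 genes this is not read as a result about the class. Trim33, a ligase for Smad4, lay at percentile 92.5 with ratios of 0.13, 0.36 and 0.02. Trim24 lay at 91.1, and at 89.0 in mouse 1, with ratios of 0.30, 0.65 and 0.35. It was called with median centring alone, at 1.04. Trim28, the corepressor of KRAB zinc finger proteins, lay at 86.2 with a mean of 0.69 (adjusted p 0.0148), and at 1.19 with median centring. Whether Trim28 was called with median centring is not given. Trim66 was dim, at 45.3.

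**Figure D4:**
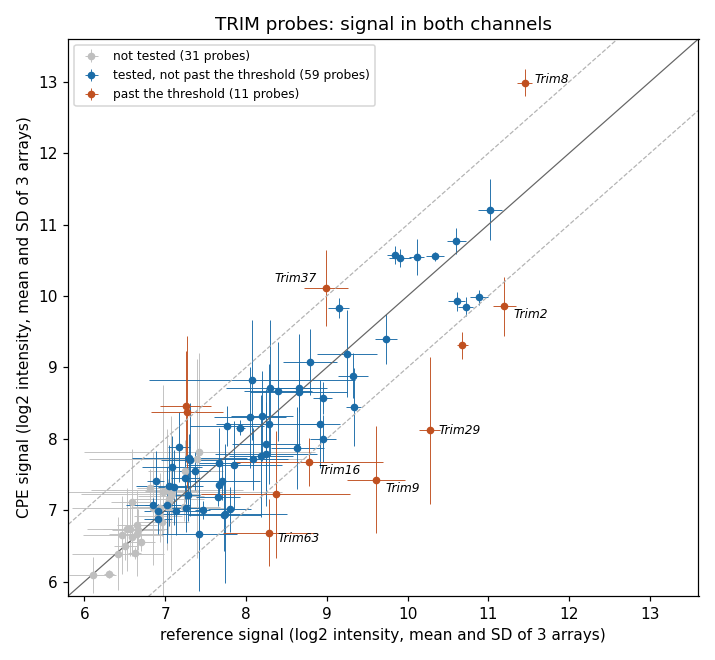
CPE signal (vertical axis) against reference signal (horizontal axis) for all 101 TRIM probes, as log2 intensity with the mean and SD of 3 arrays. The solid line marks equal signal and dashed lines 2-fold. The 11 called probes lie outside or at the dashed lines, and the 31 untested probes crowd at the dim end.

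The SPRY class was the largest, with 23 genes, of which 17 were tested and none was called (20.3% of all genes tested were). It does not hold every gene with a SPRY domain. Trim9, Trim36, Trim46 and Trim67 carry one too but were sorted with the COS genes, and Trim9 was called. Members without a RING finger, the called Trim16 among them, were sorted by that trait and not by a C-terminal domain. The median ratio of the tested genes in the SPRY class was 0.00. Closest to the limit were Trim30 at -0.95 (adjusted p 0.00724) and Trim25 at -0.87 (adjusted p 0.00341). Trim25 activates the RNA sensor RIG-I. Its ratios of -0.81, -0.96 and -0.83 lay close together. Trim21, the antibody receptor of the cytosol, lay at 0.41 (adjusted p 0.158), with mouse 3 below 0. Among the COS genes, Trim36 and Trim67 lay at -0.79 and -0.78 and Trim46, known from the axon initial segment, at 0.43. Of 6 COS genes tested, 2 were called, both lower (background 11.4%). Only Trim9 was above background in CPE on all arrays. Trim36, Trim46, Trim54, Trim63 and Trim67 entered the test through the reference channel alone. That way of entry shapes the count, so it is not read as a result about the class. Trim13 and Trim59, which are anchored in membranes, lay at -0.70 and 0.72 and were not called.

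Several TRIM genes sit side by side. On chromosome 7 (104108381 to 104286054, mm8), Trim6, Trim12, Trim34 and Trim30 had ratios from -0.95 to -0.01. On chromosome 17 (35867409 to 36518212), near the major histocompatibility complex, Trim39, Trim26, Trim15, Trim10 and Trim31 were spread from percentile 8.59 to 87.2. The tested genes there lay between -0.68 and 0.00. None of the 7 groups of neighbours held a called gene, where 20.3% of all genes tested were called. The groups held 0 to 4 tested genes each, too few to read this as a result about them. The Trim12, Trim30 and Trim34 genes have near-identical copies, which these probes may not separate.

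An ISRE, the motif read by interferon-activated factors, was found in 2 TRIM promoters, those of Trim26 and Trim30a (3.77%), and in 2.98% of all. Both genes are known from the interferon response, and the windows are shown for that reason, with the matches in capitals (GRCm38.p6, chr17:36836976-36837005 on the + strand and chr7:104465210-104465239 on the - strand). In Trim26 the run holds overlapping matches.
Trim26: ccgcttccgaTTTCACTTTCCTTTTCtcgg
Trim30a: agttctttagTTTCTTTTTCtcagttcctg
The Trim26 ratios were -0.66, -0.57 and -0.82, and those of Trim30 were -0.73, -1.45 and -0.68. These brightest probes lay below 0 in every mouse and under 2-fold on average, although that of Trim26 was at -0.09 with median centring. Their other probes varied. The other Trim30 probe gave -0.06, 0.10 and -0.28. A Trim26 probe at percentile 82.1 gave -0.36, -0.57 and -0.09, and a dimmer Trim26 probe gave 0.17, 0.13 and 0.27. Isg15, an interferon-induced ubiquitin-like protein, lay at 0.15 (adjusted p 0.589).

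Not tested by their brightest probe were Trim14, Trim15, Trim31, Trim42, Trim50, Trim52, Trim55, Trim60, Trim61, Trim65, Trim69 and Trim7. These 12 genes lay between percentiles 5.76 and 58.6. Of them, 11 had no probe tested, and a dimmer Trim65 probe was tested at 0.21 (adjusted p 0.410). Trim50, a ligase of the stomach, and Trim52 changed place most between mice, Trim50 from 19.3 in mouse 2 to 80.9 in mouse 3, and Trim52 from 2.62 to 76.4 in the same mice. Mouse 3 was also the array with most probes above background, 90 of the 101 TRIM probes in CPE against 71 and 47 in mice 1 and 2. The median size of the log2 ratio over the 70 tested TRIM probes was 0.55, 0.50 and 0.31 in mice 1, 2 and 3, and over all probes 0.48, 0.46 and 0.33. Ratios thus lay nearer 0 in mouse 3, for TRIM probes and for the whole array.

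Of 31 other genes of the pathway tested, 2 were called (6.45%), where 20.3% of all genes were. This count depended on the processing. It was 6 with median centring, and 4 with array weights or without mouse 3. Of TRIM proteins that carry other symbols, 5 were tested and none was called. These were Mid1 (0.51), Mid2 (0.00), Pml (0.19), Rnf207 (-0.66) and Bspry (-0.83). Of the E2 enzymes that TRIM proteins work with, 1 of 8 was called. It was Ube2n, which builds K63-linked chains, with ratios of 2.10, 1.36 and 1.41 (mean 1.63, SE 0.19, limma adjusted p 0.00061). Its cofactors Ube2v1 and Ube2v2 lay at 0.55 and -0.64 and were not called. Of 18 partners and targets tested, 1 was called, Kif21b, a kinesin known to bind Trim3. It was lower in CPE, with ratios of -3.07, -3.39 and -3.66 (mean -3.37, SE 0.17, limma adjusted p 1.55e-05). Trim3 and Kif21b thus differed in direction, with Trim3 under 2-fold by its brightest probe. The neuron markers given for Trim9 were also lower in CPE, and the part of such cells in the Kif21b ratio was not tested.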

How the data were processed

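The authors scanned the arrays with Agilent Feature Extraction 9.5.3.1, and the deposited scanner tables hold the linear intensity of both channels per spot and, per the file headers, a log10 ratio of red over green. A deposited series table holds log2 values, which the authors normalised between arrays with Aquantile; its rank correlation with the levels used here was 0.9976 to 0.9997. The background correction behind it is not given in the sources used here.

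With R 4.3.3 and limma 3.58.1, mean intensities were corrected with normexp (offset 50) and loess within arrays, outlier and control spots were left out, and spots of a probe were averaged. A probe was tested against 0 when either channel lay well above background on every array (eBayes, Benjamini-Hochberg over all of them, adjusted p under 0.05, at least 2-fold). The fit was tested on simulated data. For percentiles, mean red signals were taken without background correction after Aquantile and averaged over mice. The signals printed per channel are those after normexp, loess and Aquantile. A bound for a dim probe uses, per array, the higher of its own signal and the lowest signal well above background. The median log2 ratio of all tested probes was -0.04 with loess and 0.09 with median centring. The number of arrays limits the precision.

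The brightest probe stands for a gene. Values per mouse are given for called genes, Trim3, genes in the high class and genes whose probes differ by at least 2-fold, and others were chosen after their values were seen. Members and lists were chosen with earlier results of these data known. Of the TRIM probes, 76 matched a RefSeq symbol by accession, and 25 keep the array's name. Trim12, Trim30 and Trim34 matched Trim12a, Trim30a and Trim34a. Probe coordinates are mm8, and without an annotation of that build exons and introns are not given. The human arrays were not analysed here.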

Additional observations from a re-analysis of the deposited data

How the results depend on the processing

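The ratios of the 13 TRIM genes recomputed under every alternative (the called genes and those of the high class, Trim3 among them) kept their direction wherever a value was given, and Trim63 had none when both channels had to be above background. Over the 40 tested genes, the sign changed for Trim17, Trim34, Trim47 and Trim56 with median centring, for Trim17, Trim39 and Trim56 with the scanner's ratio and for Trim34 without background correction. With median centring 7 TRIM probes were higher and 4 lower in CPE, and 6 genes of the other lists were called. Of the 13 genes, Trim3, Trim24 and Trim32 became called, and Trim2 and Trim16 were lost. The scanner's log ratio called 17 TRIM probes, 13 of them lower, and lost Trim16 at -1.38 (adjusted p 0.0519). Array weights called 4 genes of the other lists. A test against 2-fold (treat) called 1 TRIM probe, 0 higher and 1 lower, and 1 gene of the other lists. With any fold, 28 TRIM probes passed, 9 higher and 19 lower, and 14 genes of the other lists. Leaving out each mouse in turn gave 9 to 12 called TRIM probes, 3 to 4 higher and 6 to 9 lower, and 2 to 4 genes of the other lists. Without mouse 3 the other lists gave 4. The high class held 7 TRIM genes without each mouse, 1 above the 95th percentile, 1 among probes above background in CPE and 2 with 1 probe per gene. The slide as a block was not run, since each array lay on its own slide. No paired analysis was possible because the samples form 1 group.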
